A study of Mus musculus with 24 samples.

Results

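The 39 genes described here handle fatty acids in the cell. They make, desaturate, elongate and activate fatty acids, store them as triglyceride in lipid droplets, release them again and feed them to mitochondria, and they include binding proteins, an uptake receptor and a pair of nuclear receptors. They were taken by symbol from a count table of 40836 genes, and all 39 were found and tested among the 20437 genes kept after a filter on low counts. The data are 24 RNA sequencing libraries of polyadenylated RNA from mouse brain. Each library name combines E3 or E4 (the E code), 05, 10 or 15 (the time code) and a number from 1 to 4, so there are 6 groups with 4 libraries in each (E3-05, E4-05, E3-10, E4-10, E3-15 and E4-15). The titles name the months January to June, with a pair of months for each time code. The labels spell out neither code and give no strain, sex, age or treatment, and they do not say which animals carried which Apoe allele. The title of the series concerns ApoE4, microglial lipids, AsxL1 and LXRα, and E4 against E3 was therefore read as its question. Although titled as biological replicates, the libraries are nowhere tied to separate animals, and p-values cover only the spread seen among them.

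Fatty acids are built from acetyl-CoA by Acly, the acetyl-CoA carboxylases and Fasn, and are then modified by desaturases and by elongases of the Elovl family. A fatty acid must be joined to coenzyme A by a ligase before it can enter a lipid or a mitochondrion. Excess fatty acid is stored as triglyceride in droplets that perilipins coat, and lipases of the Pnpla2, Lipe and Mgll series release it. In the brain, oligodendrocytes make large amounts of lipid for myelin, astrocytes carry out much of the fatty acid oxidation, and microglia can fill with droplets.

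The libraries held between 37.4 M and 99.5 M counts, where M is mega, and 48.8 M in the median. The largest known difference among the libraries followed the number that heads the count column, not a label. In the 8 libraries whose header is a multiple of 3, the mean of 12 cerebellum and hindbrain markers was 6.24 to 7.34 log2 CPM (counts scaled to the total of the library), against -0.14 to 2.09 in the other 16. The granule cell gene Gabra6 had 85.5 to 533 CPM in these 8 libraries and at most 4.63 CPM in the rest. The 8 are E3-05 2, E4-05 3, E3-10 1, E3-10 4, E4-10 2, E3-15 3, E4-15 1 and E4-15 4, so they lie across all 6 groups, and they are called hindbrain-rich below. Their split from the others was noticed in earlier work on these data and is not a group that the labels name. Whether columns or labels are out of order could not be settled, so every comparison of E codes or time codes rests on the labels as given. The mean of 8 astrocyte markers was also higher in them, at 8.11 to 8.40 log2 CPM against 7.47 to 8.01, though 4 of the 8 were called higher by edgeR, 3 were not called and Slc1a2 was lower (log2 fold change -1.10). Of the Bergmann glia and radial glia markers, 3 of 3 were called higher, at a mean of 6.36 to 7.99 against 5.07 to 5.88, and Slc1a3 is in both lists. The mean of 8 neuron markers was lower, at 8.63 to 8.90 against 9.07 to 9.28, with 3 called lower and 5 not called. In the same comparison 30.1% of all genes tested were called higher and 27.4% lower. Microglia markers were lower, at 3.91 to 4.56 against 4.81 to 5.37, and so were striatum markers (2.89 to 3.76 against 3.91 to 7.98) and those of oligodendrocyte precursors (4.69 to 5.35 against 5.41 to 5.99). Oligodendrocyte markers overlapped, at 8.04 to 9.21 against 7.83 to 9.07. The adipocyte markers Adipoq, Plin1, Cidec, Fabp4 and Lep did not exceed 0.265 CPM in any library, so adipocyte RNA was near 0 throughout.

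Of the 39 genes, 28 differed between the hindbrain-rich and the other libraries, 16 of them higher and 12 lower (edgeR quasi-likelihood test, adjusted p under 0.05). The background was high: 57.5% of all genes tested were called, 30.1% higher and 27.4% lower, against 71.8% of the 39. The median log2 fold change of the 39 genes was 0.19, against 0.04 over all genes tested. It was 0.12 without E3-10 1 and 0.13 without E3-10 2, and 27 to 30 of the 39 were called when each of the 24 libraries was left out in turn. Values of 8 of the 39 (20.5%) did not overlap between the 8 and the 16 libraries, against 13.7% of all genes tested. The genes with the lowest log2 fold changes were Dgat2, which makes triglyceride, the CoA ligases Acsl5 and Acsl4, and Mgll, which breaks down monoglyceride. The highest log2 fold changes belonged to the droplet coats Plin2 and Plin3, the carboxylase Acacb and the ligase Acsbg1. In bulk tissue, fewer cells of a type and less RNA per cell cannot be told apart.

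**Figure D1:**
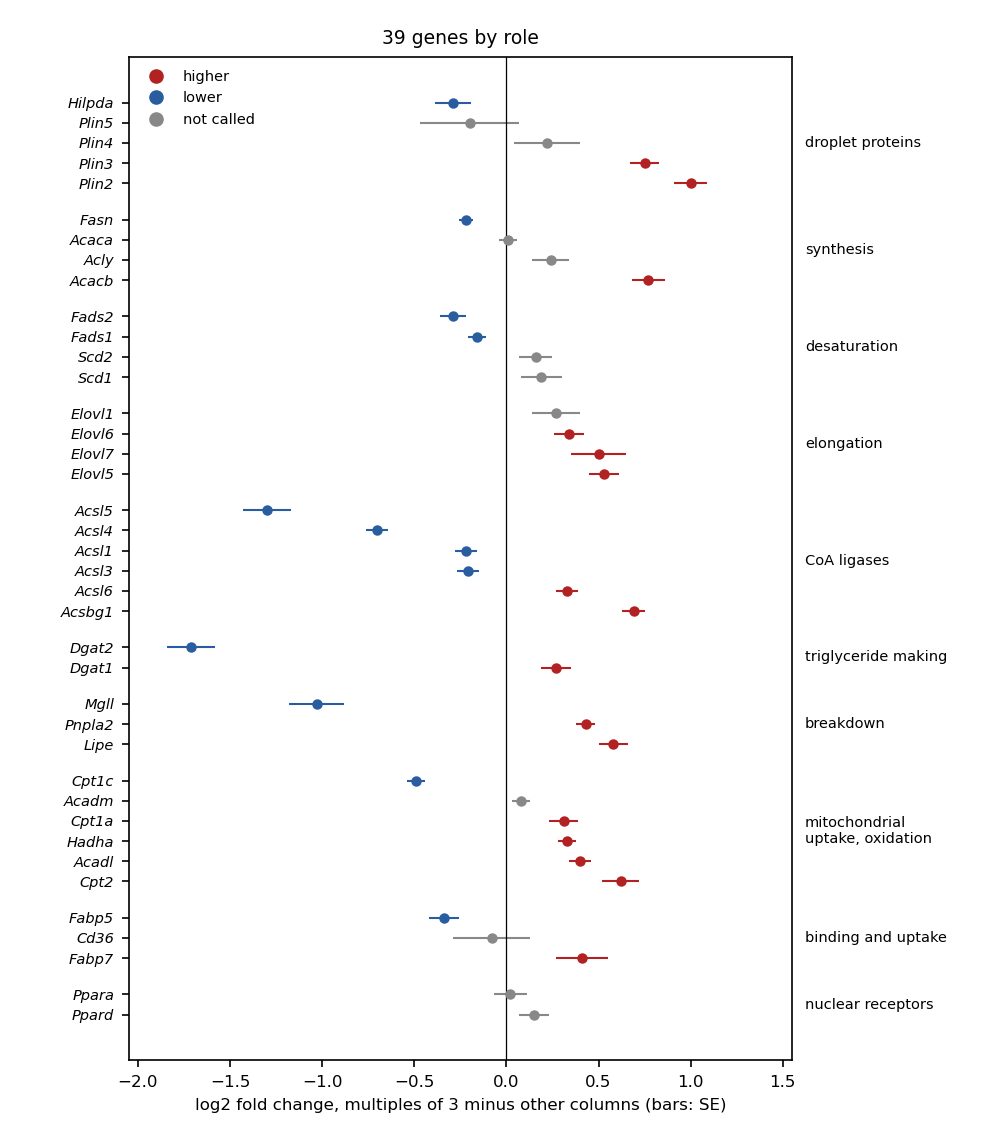
Log2 fold change of each of the 39 genes in the 8 hindbrain-rich libraries against the 16 others, with bars for the SE, grouped by role; red genes were called higher, blue lower and grey were not called. All 6 CoA ligases were called, 4 of them lower, against 57.5% of all genes tested. Dgat2 has the lowest log2 fold change at -1.71.

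The E box CACGTG, the letters bound by USF, CLOCK and other basic helix-loop-helix factors, was the only one of 3 searched motifs found near the start sites. RefSeq promoter windows (GRCm38.p6, 250 bases before to 50 after the start) were matched for 33 of the 39 genes, with 41 windows. Dgat1, Dgat2, Scd1, Scd2, Fads1 and Fabp5 were not among them. CACGTG, which reads the same on both strands, lay in the windows of 4 of the 33 genes, against 8.09% of 27025 genes with a window. A sterol regulatory element and a PPAR-type direct repeat, searched on both strands, were in 0 of the 33, against 0.0999% and 0.0481% of genes. No motif of the 3 contains another. The 4 stretches of 60 bases are shown because they carry that match, with the E box in capitals.
Elovl5, chr9:77917177-77917236, plus strand: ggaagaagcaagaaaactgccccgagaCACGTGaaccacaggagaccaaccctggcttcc
Lipe, chr7:25396110-25396169, minus strand: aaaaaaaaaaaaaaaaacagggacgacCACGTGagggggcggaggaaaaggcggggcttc
Mgll, chr6:88724341-88724400, plus strand: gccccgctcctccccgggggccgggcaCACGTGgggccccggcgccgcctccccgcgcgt
Plin2, chr4:86670058-86670117, minus strand: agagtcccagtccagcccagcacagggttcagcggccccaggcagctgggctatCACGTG
Counted from the start site, the match began at -161 in Elovl5, -155 in Lipe, -44 in Mgll and -4 in Plin2. Elovl5, Lipe and Plin2 were higher in hindbrain-rich libraries and Mgll was lower, so genes with the match did not share a direction. A match is a description of these letters and not evidence of binding.

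Among droplet proteins, the perilipins Plin2 and Plin3 were higher in hindbrain-rich libraries. Plin2 is the main coat of droplets in cells other than adipocytes. It was at 9.88 to 14.2 CPM (median 12.2) in the 8 libraries and at 3.56 to 7.65 CPM (median 6.14) in the 16, with no overlap. Its log2 fold change was 1.00 (SE 0.09), a 2-fold difference (edgeR adjusted p = 1.45e-08). Plin3, a coat protein that also circulates in the cytosol, was at 20.5 to 37.1 CPM (median 24.5) against 12.2 to 21.3 (median 14.7), so only the ends of the ranges touched. Its log2 fold change was 0.75 (SE 0.08, edgeR adjusted p = 1.52e-07). Hilpda, an inhibitor of Pnpla2, was lower (log2 fold change -0.29, edgeR adjusted p = 0.0189). Plin4 and Plin5 were scarce, at no more than 4.77 and 1.36 CPM in any library, and were not called. Per kilobase of exon, Plin5 ranked last of the 39 in both sets.

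**Figure D2:**
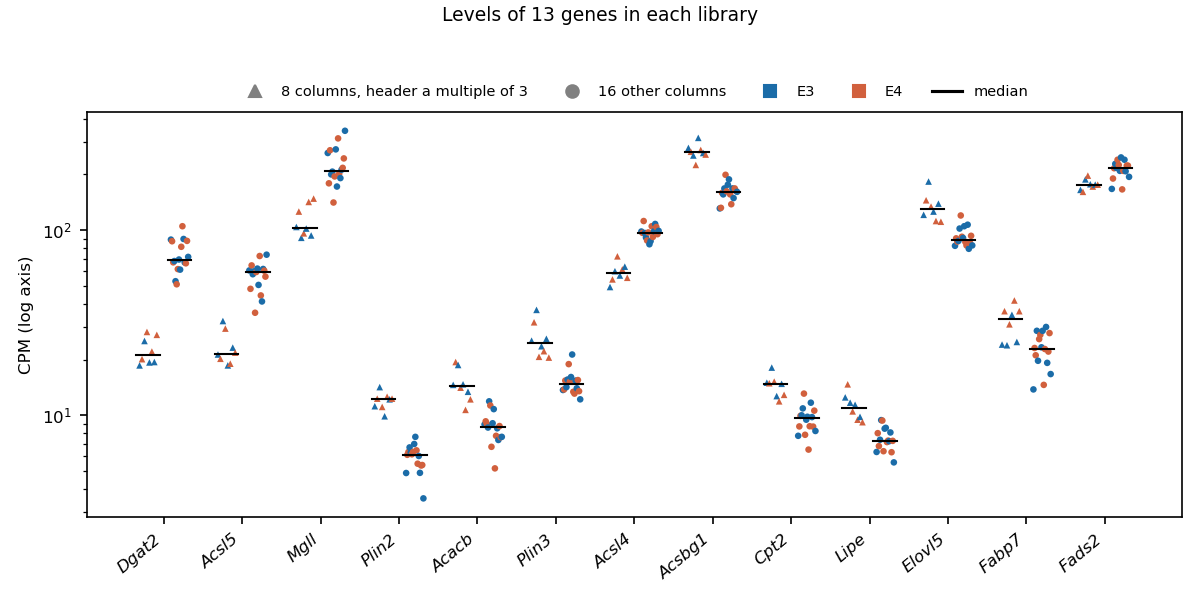
CPM on a log axis of the 13 genes described with full statistics, 1 point per library, for the 8 hindbrain-rich libraries (triangles) and the 16 others (circles), with E3 in blue and E4 in orange and black lines at medians. The ranges of Dgat2, Acsl5, Plin2, Acsl4 and Acsbg1 are separate.

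Synthesis genes did not move as a group. Acacb, the carboxylase of the outer mitochondrial membrane whose product restrains Cpt1, was at 10.7 to 19.4 CPM (median 14.3) in hindbrain-rich libraries and at 5.17 to 11.9 (median 8.67) in the others. Its log2 fold change was 0.77 (SE 0.09, edgeR adjusted p = 3.25e-07), although the lowest of the 8 lay below the highest of the 16. The cytosolic carboxylase Acaca, which feeds synthesis, had medians of 104 and 107 CPM and a log2 fold change of 0.01. Fasn, which builds palmitate, was lower by a small margin (316 against 366 CPM in the median, log2 fold change -0.22, edgeR adjusted p = 0.00027). Acly, which makes cytosolic acetyl-CoA from citrate, was not called (0.24, edgeR adjusted p = 0.0602).

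Of the 4 desaturases, 2 were called lower, against 27.4% of all genes tested, and 2 were not called. Fads2, which opens the pathway to long polyunsaturated fatty acids, was at 161 to 197 CPM (median 176) in hindbrain-rich libraries and at 166 to 247 (median 216) in the others. The log2 fold change was -0.29 (SE 0.07, edgeR adjusted p = 0.00133), with wide overlap. Fads1, the next desaturase of that pathway, was also lower (-0.16, edgeR adjusted p = 0.00902). Scd1 and Scd2, which make monounsaturated fatty acids, were not called, with log2 fold changes of 0.19 and 0.16. Scd2 had the highest level per kilobase of exon of all 39 genes in both sets, with a median of 434 CPM per kilobase in hindbrain-rich libraries and 383 in the others. Scd1 was next, at 79.3 and 69.1. Whether reads are shared between the related genes Scd1, Scd2, Scd3 and Scd4 was not tested.

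Of the elongases, 3 of 4 were called higher, against 30.1% of all genes tested. Elovl5, which lengthens polyunsaturated fatty acids, was at 111 to 183 CPM (median 130) against 79.3 to 120 (median 88.9), with a log2 fold change of 0.53 (SE 0.08, edgeR adjusted p = 4.79e-06). The lowest of its 8 values lay below the highest of the 16, which was E4-05 4. Elovl6, which lengthens palmitate, and Elovl7, another elongase, had log2 fold changes of 0.34 and 0.50 (edgeR adjusted p = 0.000847 and 0.00643). Elovl1, an elongase of very long chains, was not called (0.27, edgeR adjusted p = 0.0725).

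All 6 genes for CoA ligases were called, in opposite directions, against 57.5% of all genes tested. Acsl5, a ligase of the mitochondrial and reticular membranes, was at 18.6 to 32.3 CPM (median 21.5) in hindbrain-rich libraries and at 35.8 to 73.7 (median 59.7) in the others, with no overlap. That was 0.407 times the level of the others, a log2 fold change of -1.30 (SE 0.13, edgeR adjusted p = 3.78e-08). In the GENCODE vM21 annotation 8.31% of its exon bases overlap Zdhhc6, and the strand setting of the counting is not given. Acsl4, which prefers arachidonate, was at 49.3 to 72.2 CPM (median 58.5) against 83.9 to 112 (median 96.9), also with no overlap (log2 fold change -0.70, SE 0.06, edgeR adjusted p = 2.87e-09). Acsbg1, the ligase named for the bubblegum fly mutant, went the other way. It was at 225 to 315 CPM (median 263) against 131 to 199 (median 161), a log2 fold change of 0.69 (SE 0.06, edgeR adjusted p = 1.36e-08). Per kilobase of exon its rank among the 39 was 3 in hindbrain-rich libraries and 7 in the others. Acsl6, a ligase abundant in brain, was higher (0.33), and Acsl1 and Acsl3 were lower by small margins (-0.22 and -0.21).

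The largest difference among the 39 genes was in Dgat2, a gene of triglyceride making. Dgat2, which joins the last fatty acid onto diglyceride, was at 18.6 to 28.2 CPM (median 21.1) in hindbrain-rich libraries and at 51 to 105 (median 68.7) in the others. The ranges were far apart, and the level was 0.305 times that of the others, a log2 fold change of -1.71 (SE 0.13, edgeR adjusted p = 4.32e-10). Leaving out each library in turn gave -1.77 to -1.65. Per kilobase of exon, Dgat2 had a median of 22.3 CPM and rank 12 of the 39 in the others, and 6.84 CPM and rank 23 in hindbrain-rich libraries. Dgat1, an unrelated enzyme of the same step, was slightly higher (medians 14.9 and 12.4 CPM, log2 fold change 0.27, edgeR adjusted p = 0.00577).

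Of the 3 lipases, 2 were called higher and 1 lower, against 30.1% and 27.4% of all genes tested. Mgll, which breaks down monoglycerides including an endocannabinoid, was at 90.9 to 148 CPM (median 103) against 141 to 344 (median 210). Its log2 fold change was -1.03 (SE 0.15, edgeR adjusted p = 4.51e-06), with the highest of the 8 just above the lowest of the 16. Lipe, the hormone-sensitive lipase, was at 9.18 to 14.7 CPM (median 10.9) against 5.57 to 9.42 (median 7.29), a log2 fold change of 0.58 (SE 0.08, edgeR adjusted p = 3.91e-06). In the annotation 15.6% of its exon bases overlap a gene on the other strand, 4732471J01Rik, so part of its reads may belong to that gene. Pnpla2, which opens triglyceride breakdown, was at 31.3 to 37.8 CPM against 20.8 to 29.2, with no overlap (log2 fold change 0.43, edgeR adjusted p = 4.67e-07).

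Of the 6 mitochondrial genes, 4 were called higher and 1 lower, against 30.1% and 27.4% of all genes tested. Cpt2, the carnitine transferase of the inner membrane, was at 11.9 to 18.1 CPM (median 14.9) against 6.53 to 13.1 (median 9.63). Its log2 fold change was 0.62 (SE 0.10, edgeR adjusted p = 1.38e-05), and the ranges overlapped slightly. Acadl, a dehydrogenase of long chains, did not overlap, at 43.2 to 60.6 against 31.7 to 41.1 CPM (log2 fold change 0.40, edgeR adjusted p = 3.39e-06). Hadha, of the trifunctional protein, and Cpt1a, the gate to mitochondrial import, had log2 fold changes of 0.33 and 0.31. Cpt1c, a neuronal relative of Cpt1a in the endoplasmic reticulum, was lower, at 57.2 to 69.9 against 72.8 to 96.2 CPM with no overlap (log2 fold change -0.49, edgeR adjusted p = 1.05e-08). The mean of the neuron markers was lower in the same libraries, and its part in this value was not tested. Acadm, for medium chains, was not called (0.08).

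The binding proteins went in opposite directions. Fabp7, the fatty acid binding protein of astrocytes and radial glia, was at 23.9 to 41.7 CPM (median 32.9) against 13.8 to 30 (median 23). Its log2 fold change of 0.41 (SE 0.14, edgeR adjusted p = 0.0146) passed with wide overlap. Radial glia markers were higher in the same libraries, and their part in this value was not tested. Fabp5 was lower (medians 45.3 and 61.3 CPM, log2 fold change -0.34, edgeR adjusted p = 0.00101). The uptake receptor Cd36 was at no more than 2.84 CPM in any library and was not called. The nuclear receptors Ppara and Ppard, which switch on genes of oxidation, were not called either, with log2 fold changes of 0.02 and 0.15.

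Of 105 other genes of these pathways, 97 were tested, and 57 of them (58.8%) were called, 43 higher and 14 lower, with a median log2 fold change of 0.11. That share lay near the 57.5% of all genes. Genes of oxidation were called higher in 16 of 25 cases and lower in 2, against 30.1% and 27.4% of all genes. The largest difference was in Lpl, the lipoprotein lipase, at 0.189 times the level of the other libraries (log2 fold change -2.40, SE 0.25, edgeR adjusted p = 7.12e-08). Scd3, Pnpla3, the droplet lipase-like protein, and Thrsp, an activator of lipid synthesis, were higher by 3.46-fold, 3.08-fold and 2.14-fold. Cidea, a droplet fusion protein, was higher by 1.99-fold. Scd4 was at 0.49 times the level of the others (log2 fold change -1.03, SE 0.38, edgeR adjusted p = 0.0246). Whether Scd3 and Scd4 share reads with Scd1 and Scd2 was not tested.

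Within the 16 other libraries, levels of some of the 39 genes moved with markers of glia. Correlations were computed for 39 genes with 4 marker lists, which makes 156 relations, and p-values were from 100000 permutations with adjustment over the 156. The points share the library's depth and normalization, and levels are log2 CPM. For oligodendrocyte markers, 15 of the 39 genes (each with an r of 0.65 or more) passed, all with positive r, and 8 of them passed by rank as well. Of all 20437 genes tested, 4.61% had an r as far from 0, and 3.22% with a positive r. Elovl1 had the closest relation (Pearson r = 0.95, Spearman rho = 0.88, permutation p = 1e-05, the smallest these permutations can give, adjusted p = 0.00078), and without the 2 libraries farthest from the median r was 0.90. Elovl7 followed (r = 0.90, rho = 0.85, permutation p = 3e-05, adjusted p = 0.00156), with r = 0.80 without the farthest 2. Elovl1 and Elovl7 are both elongases, and a part of either in myelin was not tested here. For Scd1 r was 0.80 and rho 0.67 (permutation p = 0.00022, adjusted p = 0.00686), and for Scd2 r was 0.78 and rho 0.65 (permutation p = 0.00044, adjusted p = 0.00981). The r of Scd2 was 0.52 without the farthest 2 libraries, and its rank correlation had an adjusted permutation p of 0.0582. In the 8 hindbrain-rich libraries r was 0.97 for Elovl1, 0.79 for Elovl7, 0.77 for Scd1 and 0.93 for Scd2, and 0 of the 156 relations passed adjustment there by the exact permutation test.

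For astrocyte markers, 8 of the 39 genes passed in the 16 libraries, 7 with positive and 1 with negative r. An r as far from 0 as the weakest of these (0.64) was found in 3.88% of all genes tested. Acsbg1 (r = 0.85, rho = 0.75, permutation p = 1e-05, adjusted p = 0.00078) and Hadha (r = 0.82, rho = 0.87, permutation p = 0.00015, adjusted p = 0.00585) led, with r of 0.71 and 0.80 without the farthest 2. Dgat2 had the negative relation (r = -0.72, rho = -0.70, permutation p = 0.00169, adjusted p = 0.0203), and r was again -0.72 without the farthest 2. In the 8 hindbrain-rich libraries r was 0.45 for Acsbg1, 0.77 for Hadha and -0.35 for Dgat2. Dgat2 also followed striatum markers in the 16 (r = 0.63, rho = 0.69, permutation p = 0.00801, adjusted p = 0.0481), and r was 0.73 without the farthest 2. It was the only 1 of the 39 to pass for striatum, while 4.2% of all genes tested had an r as far from 0. Acsl4 went against mural and fibroblast markers (r = -0.76, rho = -0.79, permutation p = 0.00057, adjusted p = 0.0111). Its r was -0.58 without the farthest 2 and -0.28 in the 8 hindbrain-rich libraries. Fabp5 also passed for these markers (r = 0.65, rho = 0.59, permutation p = 0.00651, adjusted p = 0.0418), with r = 0.36 without the farthest 2. An r as far from 0 as 0.65 was found in 1.51% of all genes tested. These correlations describe libraries and do not place a gene in a cell type.

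**Figure D3:**
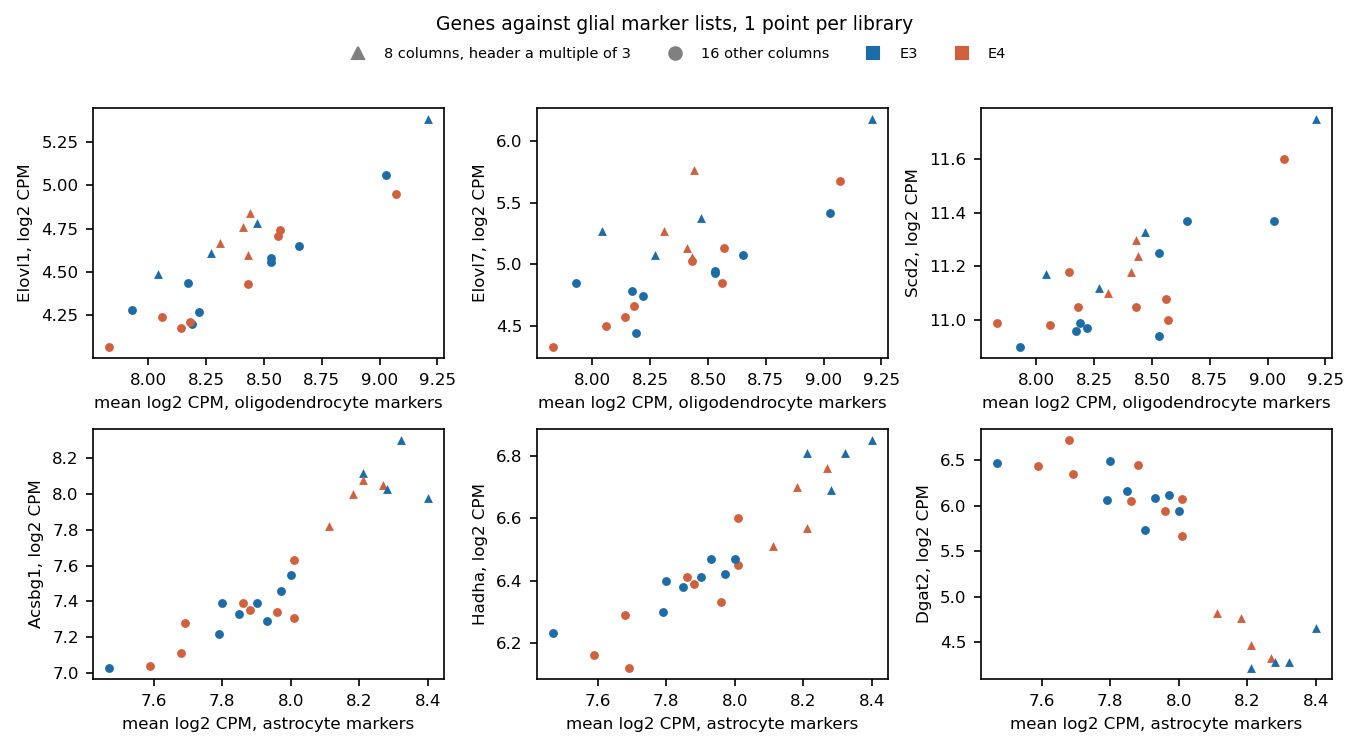
Log2 CPM of 6 genes against the mean log2 CPM of oligodendrocyte markers (top) or astrocyte markers (bottom), 1 point per library, triangles for the 8 hindbrain-rich libraries and circles for the 16 others, E3 in blue and E4 in orange. Elovl1 follows oligodendrocyte markers in the 16 others (r = 0.95), its r of 0.97 in the 8 hindbrain-rich libraries did not pass adjustment (exact permutation, adjusted p = 0.089), and Dgat2 lies far lower in the hindbrain-rich libraries than in any other library.

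Between E4 and E3, averaged over time codes and with the hindbrain-rich set as a term, 0 of the 39 genes were called by edgeR, as were 0% of all genes. DESeq2 and limma-voom also called 0 of the 39. At an unadjusted p under 0.05, 1 gene of the 39 stood out, against 2.73% of all genes. That gene was Acadl, at a log2 difference of -0.11 (SE 0.05, edgeR adjusted p = 1). Its values in the 8 hindbrain-rich libraries were 50.9 to 60.6 CPM in the 4 E3 and 43.2 to 49.9 in the 4 E4 libraries, while those of the 16 others overlapped (35 to 40.7 in E3 and 31.7 to 41.1 in E4). The share of all genes apart between E3 and E4 in the hindbrain-rich libraries was not computed. Acaca, Plin4 and Acacb had log2 differences of -0.09 (SE 0.04), -0.33 (SE 0.17) and -0.15 (SE 0.08), each with an edgeR adjusted p of 1. Without E3-10 1 the value of Acaca was -0.05. Of the 39 genes, 30 had a value below 0, with a median of -0.06, against a median of -0.00 for all genes. The median was -0.02 without E3-10 1 and -0.08 without E3-10 4.

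At time code 05, 0 of the 39 genes were called by edgeR, DESeq2 or limma-voom (edgeR, 0% of all genes), and 0 of the 39 had an unadjusted p under 0.05, against 2.69% of all genes. The smallest p belonged to Elovl7, with a log2 difference of 0.44 (SE 0.24, edgeR adjusted p = 0.994). Its E3-05 libraries 1 to 4 were at 28.8, 33.9, 21.6 and 30.8 CPM, and its E4-05 libraries at 20, 32.5, 54.6 and 51.3. The pair E4-05 3 and E4-05 4 carried the difference. E4-05 4 had the highest oligodendrocyte mean of the 16 other libraries, 9.07 log2 CPM, and the part of these cells in the value was not tested. The difference was 0.20 without E4-05 4 and 0.63 without E4-05 1. Plin3 had 0.20 (SE 0.13, 0.11 without E4-05 3), Elovl5 0.16 (SE 0.12, 0.06 without E4-05 4) and Cpt1c -0.09 (SE 0.07, -0.05 without E4-05 4 and -0.14 without E3-05 4). The median over the 39 was 0.06 and became -0.03 without E4-05 4.

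At time code 10 the 39 genes lay mostly lower in E4, without a call. Here 0 of the 39 were called by edgeR, DESeq2 or limma-voom, while edgeR called 0.00979% of all genes. At an unadjusted p under 0.05 there were 7 of the 39, against 5.01% of all genes. Those that also had a value below 0 were 6 of the 39, against 3.12% of all genes. The median of the 39 was -0.15 and 31 lay below 0. All genes had a median of -0.00, with 10330 of 20437 below 0, and the 97 other pathway genes a median of -0.10, with 77 below 0. By role, all 4 synthesis, all 4 desaturation and all 4 elongation genes lay below 0.

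Plin4, a scarce perilipin, had the widest gap at time code 10. The E3-10 libraries 1 to 4 were at 4.20, 4.03, 3.50 and 3.19 CPM and the E4-10 libraries at 1.87, 2.03, 2.15 and 1.77, so the groups did not overlap. The log2 difference was -0.88 (SE 0.30, edgeR adjusted p = 0.829), a level of 0.542 times, and -0.97 to -0.79 when each library was left out. The share of all genes without overlap between E3-10 and E4-10 was not computed. The E3-15 libraries 1 to 4 spread from 1.42 to 4.77 CPM, wider than E3-10 and E4-10 together, and the E4-15 libraries from 2.07 to 4.30.

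Acacb was at 18.7, 9.06, 10.8 and 14.7 CPM in E3-10 libraries 1 to 4 and at 6.76, 14.1, 5.17 and 7.75 in E4-10. The high E4 value was the hindbrain-rich E4-10 2, and it lay below both hindbrain-rich E3 values. The log2 difference was -0.50 (SE 0.15, edgeR adjusted p = 0.628). Plin3 was at 37.1, 16.1, 21.3 and 23.6 CPM against 15.2, 20.7, 13.4 and 13.1, a log2 difference of -0.45 (SE 0.14, edgeR adjusted p = 0.64). Within the hindbrain-rich and within the other libraries, each E3 value of Plin3 lay above each E4 value. Hadha was at 115, 85.7, 88.4 and 112 CPM against 80.3, 91.1, 69.5 and 78.3, with the same order within sets (log2 difference -0.24, SE 0.08, edgeR adjusted p = 0.803). The share of all genes with such an order was not computed. Acsbg1 (-0.27), Acadl (-0.21) and Acsl4 (0.19) were the other genes with an unadjusted p under 0.05, each with an edgeR adjusted p of 0.943.

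**Figure D4:**
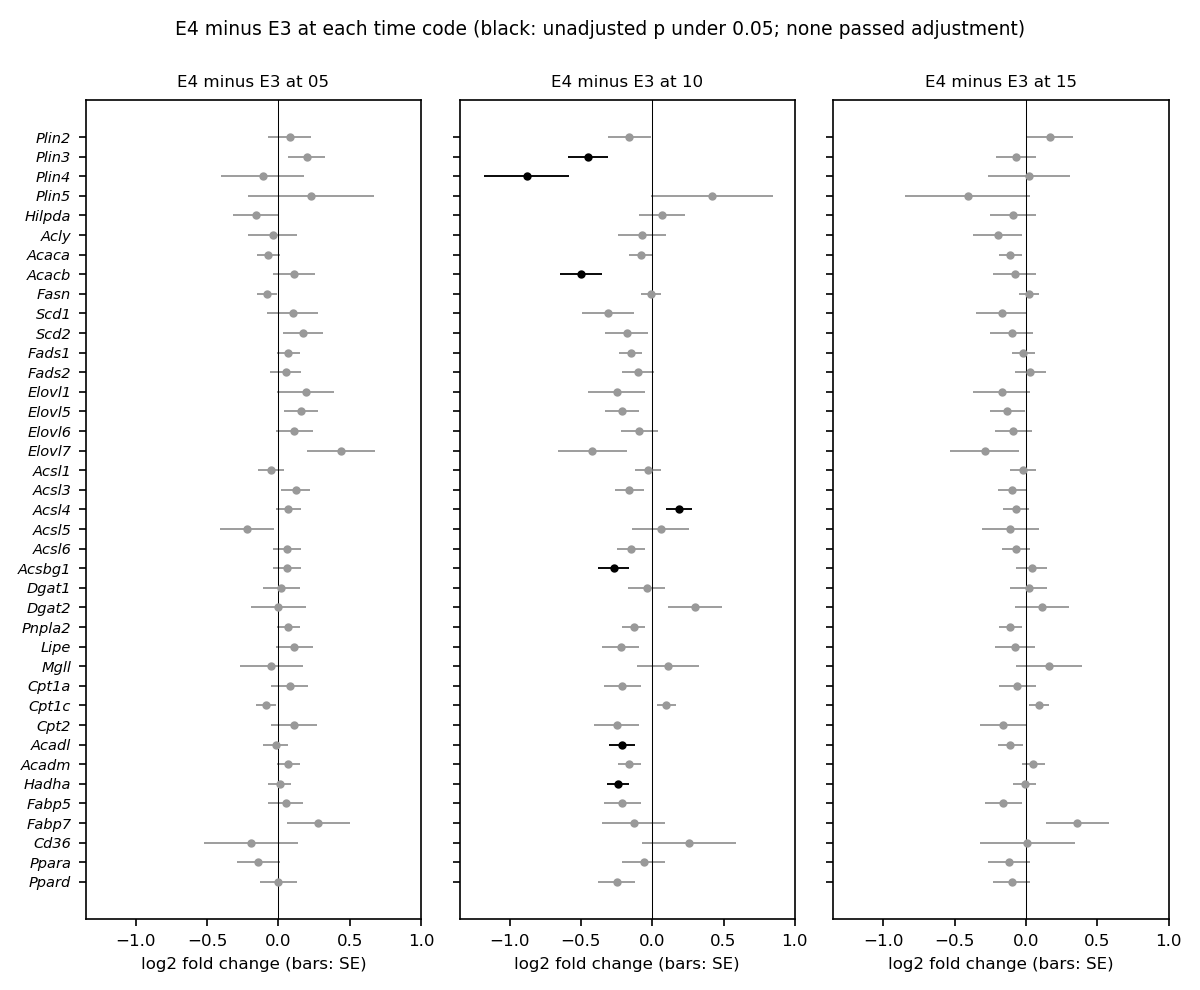
Log2 difference E4 minus E3 of the 39 genes at time codes 05, 10 and 15, with bars for the SE; black points have an unadjusted p under 0.05 and none passed adjustment. Only the middle panel has black points, 7 in number, and most of its points lie below 0.

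Markers of some cell types also lay lower in E4 at time code 10, and those of the striatum lay higher. Of the oligodendrocyte markers 10 of 10 were below 0 (median -0.28), of the astrocyte markers 7 of 8 (median -0.20) and of the mural and fibroblast markers 9 of 9 (median -0.71). Microglia markers were split 4 to 4, with a median of 0.01. Of the striatum markers 6 of 6 were above 0 (median 0.84). Their part in the values of the 39 genes was not tested. The median of the 39 was -0.09 without E3-10 1, which had the highest oligodendrocyte mean of all 24 libraries at 9.21 log2 CPM, and -0.13 among the 16 other libraries alone, where 4 genes had an unadjusted p under 0.05.

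At time code 15, 0 of the 39 genes were called by edgeR, DESeq2 or limma-voom (edgeR, 0% of all genes), and 0 had an unadjusted p under 0.05, against 1.91% of all genes. Fabp7 had the smallest p, with 30, 19.2, 24.9 and 16.7 CPM in E3-15 libraries 1 to 4 and 41.7, 22.1, 27.8 and 36.5 in E4-15, which overlapped. Its log2 difference was 0.36 (SE 0.22, edgeR adjusted p = 1), and 0.58 without E3-15 1. Acaca had -0.11 (SE 0.08, -0.07 without E3-15 3), Pnpla2 -0.11 (SE 0.08, -0.03 without E4-15 3) and Cpt1c 0.09 (SE 0.07, 0.04 without E3-15 3). The median over the 39 was -0.08, and -0.01 among the 16 other libraries alone.

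The E4 minus E3 difference was also compared between hindbrain-rich and other libraries. By edgeR, DESeq2 and limma-voom 0 of the 39 genes were called (edgeR, 0% of all genes), and 2 had an unadjusted p under 0.05 by edgeR, against 4.17% of all genes. Acly, the source of cytosolic acetyl-CoA, had the smallest p. Its hindbrain-rich E3 libraries were at 272 (E3-05 2), 441 (E3-10 1), 248 (E3-10 4) and 340 CPM (E3-15 3). Its hindbrain-rich E4 libraries were at 236 (E4-05 3), 269 (E4-10 2), 205 (E4-15 1) and 221 CPM (E4-15 4), so the groups overlapped between 248 and 269. The log2 difference was -0.47 (SE 0.14) in hindbrain-rich and 0.08 (SE 0.10) in the other libraries, a contrast of -0.55 (SE 0.18, edgeR adjusted p = 0.995). Acaca had -0.21 and -0.03, Acadl -0.26 and -0.04, and Cpt1a -0.24 and 0.02. Without E3-10 1 the contrast went from -0.18 to -0.11 for Acaca and from -0.26 to -0.16 for Cpt1a. Between time codes 15 and 05 the E4 minus E3 difference was called for 0 of the 39 genes by edgeR, DESeq2 and limma-voom (edgeR, 0% of all genes). At an unadjusted p under 0.05 there was 1 of the 39, against 2.75% of all genes, which was Elovl7 at -0.73 (SE 0.34, edgeR adjusted p = 0.994). Cpt1c, Elovl5 (-0.19 without E4-05 4) and Acsl3 followed with 0.19, -0.29 and -0.21.

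Between time codes, averaged over E codes, 0 of the 39 genes were called by edgeR, DESeq2 or limma-voom in any of 3 comparisons. The titled months differ with the time code, so month and time code cannot be told apart between time codes. For 10 minus 05, edgeR called 0% of all genes, and 2 of the 39 had an unadjusted p under 0.05, against 4.03% of all genes. They were Fabp5 (0.23, SE 0.09) and Acacb (-0.25, SE 0.10), with an edgeR adjusted p of 0.999, and Fads1 (0.11) and Hilpda (-0.19) came next. For 15 minus 10, edgeR called 0.00489% of all genes, and 2 of the 39 had an unadjusted p under 0.05, against 7.72% of all genes. They were Cpt1c (0.13, SE 0.05, edgeR adjusted p = 0.6) and Fabp5 (-0.18, SE 0.09, edgeR adjusted p = 0.643), followed by Plin2 (-0.20, and -0.13 without E3-15 4) and Plin3 (-0.18).

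For 15 minus 05, edgeR called 0.0538% of all genes, and 2 of the 39 had an unadjusted p under 0.05, against 4.56% of all genes. In hindbrain-rich libraries Acacb was at 14.6 and 19.4 CPM at time code 05, at 14.1, 14.7 and 18.7 at 10 and at 10.7, 12.2 and 13.4 at 15. In the others its median went from 9.13 CPM (8.59 to 11.9, 6 libraries) to 7.75 (5.17 to 10.8, 5 libraries) and 7.65 (7.36 to 8.75, 5 libraries). The values at 05 and 15 did not overlap among hindbrain-rich libraries and met at the edges among the others. The hindbrain-rich libraries compared are few, and the share of all genes apart in this way was not computed. The log2 difference was -0.37 (SE 0.10, edgeR adjusted p = 0.636), and -0.50 and -0.30 within the hindbrain-rich and the other libraries.

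Lipe showed a like pattern for 15 minus 05, at -0.29 (SE 0.09, edgeR adjusted p = 0.859). It was at 12.5 and 14.7 CPM in hindbrain-rich libraries of time code 05 and at 9.18 to 9.81 CPM in the 3 of time code 15, with no overlap. In the others its median was 7.69 CPM at 05 (6.34 to 9.42) and 7.25 at 15 (5.57 to 8.08), which overlapped. For the few hindbrain-rich libraries, the share of all genes apart in this way was not computed. The log2 difference was -0.53 within hindbrain-rich and -0.21 within the other libraries. Plin3 and Cpt1c had values of -0.17 and 0.07 (Cpt1c 0.04 without E3-05 4).

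**Figure D5:**
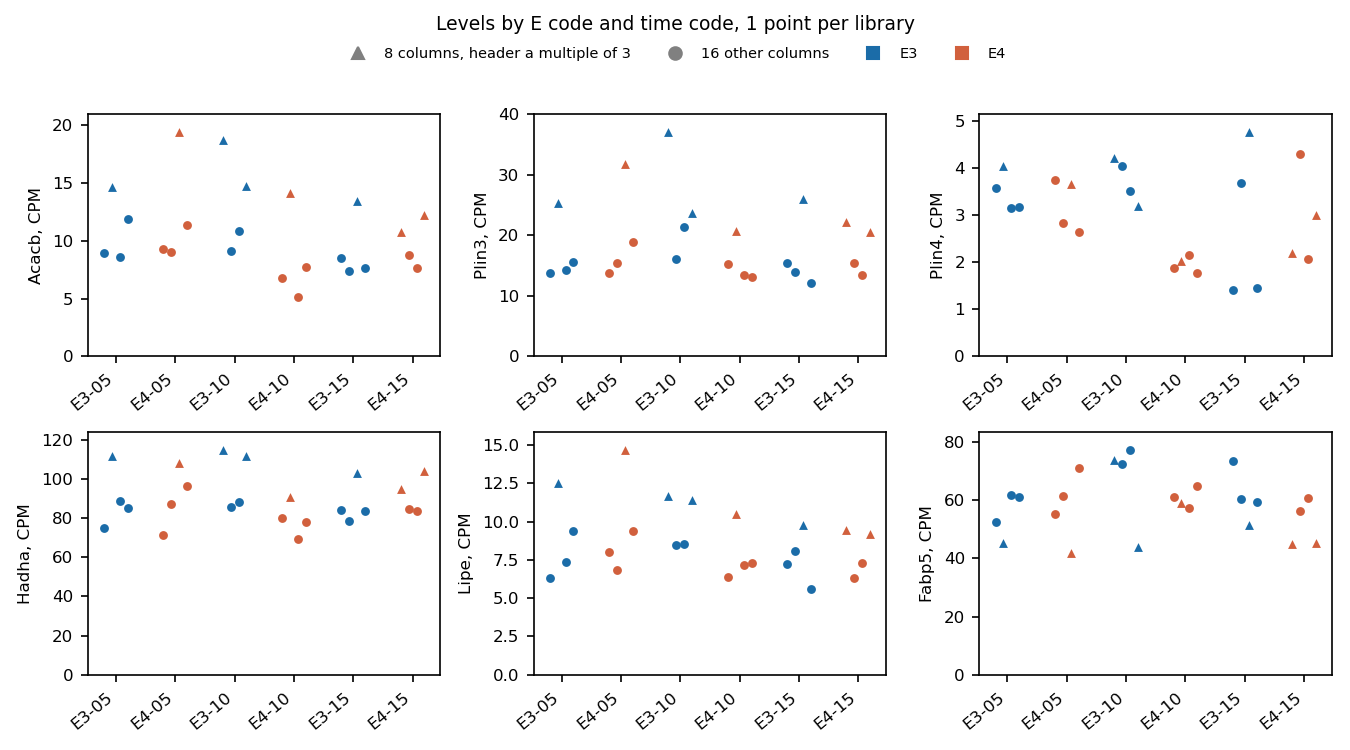
CPM of 6 genes in each library by group of E code and time code, triangles for the 8 hindbrain-rich libraries and circles for the 16 others, E3 in blue and E4 in orange. Values of Plin4 in E3-10 and E4-10 do not overlap, though Plin4 was not called there. Acacb and Lipe lie higher in the hindbrain-rich libraries at every time code.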

How the data were processed

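Polyadenylated RNA of mouse brain was extracted with TRIzol and sequenced on a NovaSeq, per the labels' protocols. Per the submitters' processing notes, HISAT2 2.1.0, the mm39 build and featureCounts 2.0.6 were used. The annotation and strand setting are not given in the sources used here. The authors deposited 1 table of unnormalized counts, with a row for each gene symbol. Of the counts from 1 to 19, 62.6% to 70.8% per library were even. Read pairs may often have given 2 counts, so that fragments would be fewer than counts, which was not tested. Columns were joined to libraries by the number in each label, and 0 were left unmapped.

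Genes were filtered with edgeR's filterByExpr over the 6 groups and fitted in R 4.3.3 with edgeR 4.0.16 (TMM factors, quasi-likelihood test, 17 residual degrees of freedom). The fit had 6 group coefficients and a term for the 8 columns headed by a multiple of 3. Adjustment was Benjamini-Hochberg over all genes tested, with a threshold of 0.05. Log2 fold changes carry their standard error (SE). Log2 CPM used a prior count of 2. Exon lengths and overlaps came from GENCODE vM21 (GRCm38), another build than the counts', so levels per kilobase are approximate. Alternatives were DESeq2 1.42.0, limma-voom (limma 3.58.1), RLE factors, other filters, no column term, terms for each set of 3 adjacent columns, the titled month within each time code, a replicate block, each column set alone, a threshold of 0.01, leaving out libraries with Hbb-bs above 100 CPM or Gh above 1000 CPM, and leaving out each library. The fit was tested on simulated data. The 39 genes and all lists were chosen with earlier results of these data known. Full statistics are given for the 10 called genes of largest change between column sets, with the largest called gene of each role not yet named, and for the 4 genes of smallest p where fewer than 4 were called. The 6 other pathway genes named had the largest called changes. Genes named beyond these, including those with an unadjusted p under 0.05 and those in the correlations, were chosen after their values were seen.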

Additional observations from a re-analysis of the deposited data

Results flagged for a closer look

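Of 156 sets of values (39 genes, each in the hindbrain-rich or other libraries of E3 or E4), 17 had a library apart from the rest by Dixon's criterion, and chance gives about 1 in 20. E4-05 4, which had an oligodendrocyte marker mean of 9.07 log2 CPM, was apart by this criterion, as the highest of the 8 other E4 libraries, for 5 genes. In it Scd2 was at 3110 CPM (nearest 2320), Scd1 at 506 (352), Elovl6 at 122 (93.4), Elovl5 at 120 (93.2) and Plin3 at 18.9 (15.5). E3-10 1, with the highest oligodendrocyte mean at 9.21, was apart from the other 3 hindbrain-rich E3 libraries for Cpt1a at 71.5 CPM (nearest 53), Plin3 at 37.1 (25.9) and Dgat2 at 25.2 (19.4). The part of oligodendrocytes in these values was not tested.

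Plin3 was apart in all 4 sets, also in E3-10 3 at 21.3 CPM (nearest 16.1) and in E4-05 3 at 31.8 (22.2). Other high values were Elovl1 in E3-15 1 at 33.4 CPM (25.1), Scd1 in E4-10 2 at 405 (345), Elovl6 in E3-15 3 at 128 (116), Fabp7 in E3-10 4 at 34.9 (24.9) and Fasn in E3-05 1 at 395 (372). Low values were Hilpda in E4-15 4 at 2.29 CPM (nearest 3.01) and Acly in E4-05 2 at 202 (237).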

How the results depend on the processing

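Counts of the 39 genes called stayed within 1.5 times the reported count under each alternative run: 26 to 30 between column sets (27 to 30 when each library was left out) and 0 in the 9 other comparisons. For the genes named, 609 values kept direction and call. In 9 the sign turned, none of them called. Without the column term E4 minus E3 at 15 was -0.04 for Cpt1c and 0.01 for Pnpla2. With a term for each 3 adjacent columns, Hilpda was 0.44 for 10 minus 05, Cpt1c -0.02 and Plin2 0.14 for 15 minus 10, and Plin3 0.24 for 15 minus 05. With these terms 10 minus 05 rests on the only set holding both codes, with 1 library of code 10 (E3-10 1), and 15 minus 10 likewise on E4-10 4. In the 8 hindbrain-rich libraries alone Plin2 was 0.06 for 15 minus 10 and Cpt1c -0.01 for 15 minus 05. The titled month was coded within each time code, so 15 minus 05 then compares only the earlier month of each, May against January, and Plin3 was 0.00. For the rest the cause was not tested. Fabp7 (0.41, edgeR adjusted p = 0.0146) missed a threshold of 0.01 between column sets. A filter of 1 CPM in 8 libraries left 38 of the 39. Over all genes, DESeq2 called 33 for E4 minus E3 at 10 (edgeR 2), 18 for 10 minus 05 (0), 18 for 15 minus 10 (1) and 36 for 15 minus 05 (11), and the terms for 3 adjacent columns called 418 for 10 minus 05. With a replicate block 28 of the 39 were called between column sets and 0 elsewhere. Library numbers were not shown to pair samples: deviations of same-numbered libraries had a median correlation of -0.0149 over 60 pairs, and 4 of 24 libraries correlated best with their own number.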

Other observations

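Genes of the series title differed between the sets of columns, where 57.5% of all genes tested were called and 13.7% did not overlap. Nr1h3, which encodes the liver X receptor alpha and switches on lipid genes, was at 4.97 to 7.95 CPM in the 8 hindbrain-rich libraries and at 2.3 to 3.73 in the 16 others, with no overlap (log2 fold change 1.09, edgeR adjusted p = 4.18e-09). Apoe, the main lipid carrier of the brain, was at 821 to 992 CPM against 909 to 1200, a log2 fold change of -0.23 (edgeR adjusted p = 0.00102). Asxl1 had a log2 fold change of -0.16 (edgeR adjusted p = 0.000667). Between E4 and E3, averaged over time codes, log2 differences were -0.06 for Nr1h3, -0.05 for Apoe and 0.01 for Asxl1, each with an edgeR adjusted p of 1.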
